A study of Mus musculus with 32 samples.

Results

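This account concerns 35 genes of the unfolded protein response and the integrated stress response, read from liver microarrays of 32 mice. They were found as the non-control probes whose gene name in the scanner files is one of 35 listed symbols, and they make up 35 of the 23645 genes tested. The scanner files hold 65 probes for them, of which 62 passed the filter on dim probes, and each of the 35 genes was well above background on all 32 arrays. By role, 14 are chaperones and folding enzymes, 5 act in ER-associated degradation, 4 are stress sensors or XBP1, 5 are transcription factors of the integrated stress response and 7 are its effectors.

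The mice were male C57BL/6J offspring in a study of diet and of E171, a food-grade titanium dioxide used as a white colouring. Their mothers, 8 weeks old at the start, ate pellets with or without E171 for 40 days before mating, and the offspring stayed on the mother's condition and were weaned at 3 weeks. From 5 weeks of age the sons ate a normal or a Western diet for 16 weeks, and livers were taken at 21 weeks. The 4 groups of 8 mice were Western diet with E171, dosed to reach 10 mg/kg of body weight daily, Western diet without E171, normal diet with the same E171 dose, and normal diet without E171. The labels call the second diet Western and the feeding protocol calls it high-fat. Litters are not given in the labels, so every p-value takes the mice as independent and sons of 1 mother may share a group.

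The endoplasmic reticulum (ER) folds secreted and membrane proteins, and a hepatocyte, which secretes most plasma proteins, carries a heavy folding load. Unfolded protein is sensed by IRE1, PERK and ATF6: IRE1 splices Xbp1 mRNA, ATF6 is cut free of the membrane, and both lead to transcription of chaperones and degradation factors, while PERK phosphorylates eIF2 alpha. Other kinases that sense lack of amino acids, viral RNA or lack of haem phosphorylate the same factor, and this integrated stress response favours translation of ATF4, which with CHOP drives amino acid synthesis, redox and feedback genes.

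The promoters of 8 members are printed because some members carry different response elements. Other members carried none of the elements searched for. RefSeq's promoter table (GRCm38.p6) held 32 of the 35 members, and Manf, Hyou1 and Atf6 had no entry there. Each line gives the 250 bases before the annotated start, 5′ to 3′ on the gene's strand. In the first 4 the capitals mark an ER stress response element (ERSE, the letters CCAAT, then 9 bases, then CCACG, on either strand). In Herpud1 they mark ERSE-II (ATTGG, then 1 base, then CCACG) and a CARE-type element (TGATGNAA, a C/EBP-ATF site), and in the last 3 a CARE-type element.
Hspa5 (chr2:34771840-34772089, + strand): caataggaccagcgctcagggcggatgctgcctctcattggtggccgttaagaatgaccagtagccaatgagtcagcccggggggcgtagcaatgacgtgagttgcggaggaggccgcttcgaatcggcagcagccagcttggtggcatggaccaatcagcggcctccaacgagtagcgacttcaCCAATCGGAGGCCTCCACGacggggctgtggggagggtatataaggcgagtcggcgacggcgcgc
Creld2 (chr15:88819396-88819645, + strand): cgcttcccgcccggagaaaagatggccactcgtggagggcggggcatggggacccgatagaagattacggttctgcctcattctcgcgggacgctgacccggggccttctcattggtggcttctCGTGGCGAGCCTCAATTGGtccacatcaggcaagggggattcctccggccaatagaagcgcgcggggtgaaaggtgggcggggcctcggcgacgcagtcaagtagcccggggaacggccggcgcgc
Syvn1 (chr19:6046326-6046575, + strand): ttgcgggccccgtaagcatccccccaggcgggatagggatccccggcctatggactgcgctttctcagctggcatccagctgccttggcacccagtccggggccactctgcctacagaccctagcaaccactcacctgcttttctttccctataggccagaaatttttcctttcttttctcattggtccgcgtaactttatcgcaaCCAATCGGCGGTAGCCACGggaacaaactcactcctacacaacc
Derl3 (chr10:75893148-75893397, + strand): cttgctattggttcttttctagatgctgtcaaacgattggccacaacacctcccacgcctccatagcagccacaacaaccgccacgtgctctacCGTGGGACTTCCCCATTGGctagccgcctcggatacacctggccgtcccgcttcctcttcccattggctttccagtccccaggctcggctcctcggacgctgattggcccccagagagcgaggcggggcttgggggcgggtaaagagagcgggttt
Herpud1 (chr8:94386179-94386428, + strand): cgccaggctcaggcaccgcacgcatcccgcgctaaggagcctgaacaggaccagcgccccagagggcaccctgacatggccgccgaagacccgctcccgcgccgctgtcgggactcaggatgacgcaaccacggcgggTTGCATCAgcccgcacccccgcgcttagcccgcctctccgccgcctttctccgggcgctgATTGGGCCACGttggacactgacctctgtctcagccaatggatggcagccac
Atf3 (chr1:191183334-191183583, - strand): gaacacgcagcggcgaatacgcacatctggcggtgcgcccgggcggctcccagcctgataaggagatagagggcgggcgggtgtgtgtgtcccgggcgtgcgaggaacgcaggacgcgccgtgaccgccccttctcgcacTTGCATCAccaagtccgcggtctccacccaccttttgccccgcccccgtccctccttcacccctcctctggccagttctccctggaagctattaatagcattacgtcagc
Nupr1 (chr7:126625471-126625720, - strand): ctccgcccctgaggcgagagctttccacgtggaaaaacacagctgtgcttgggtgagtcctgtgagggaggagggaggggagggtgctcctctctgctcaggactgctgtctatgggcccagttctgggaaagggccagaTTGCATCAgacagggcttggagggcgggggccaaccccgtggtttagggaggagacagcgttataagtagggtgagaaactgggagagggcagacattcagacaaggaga
Chac1 (chr2:119350992-119351241, + strand): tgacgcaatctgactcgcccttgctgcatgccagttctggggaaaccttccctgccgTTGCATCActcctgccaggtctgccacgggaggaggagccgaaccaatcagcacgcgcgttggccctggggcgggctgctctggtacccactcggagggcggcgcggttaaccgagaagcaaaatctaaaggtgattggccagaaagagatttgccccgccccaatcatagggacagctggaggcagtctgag
ERSE was found on one strand or the other of the 300-base window, which adds 50 bases after the start, in 9 members: Hspa5, Hsp90b1, Pdia6, Calr, Canx, Dnajc3, Creld2, Syvn1 and Derl3. It occurred in 39 of the 32851 windows of the table, or 0.119%. By role it was found in 7 of 12 chaperones and 2 of 5 degradation genes with a window. ERSE-II was found in Herpud1 and Dnajb11 and in 0.0365% of windows. The CARE-type element was found in 6 members, namely Atf3, Nupr1, Trib3, Chac1, Asns and Herpud1, and in 3.97% of windows. By role the CARE-type element was in 2 of 5 transcription factors, 3 of 7 effectors and 1 of 5 degradation genes. The core of the XBP1 site, TGACGTGG, was found in 0 members and in 0.676% of windows. No motif searched for was found in the 3 members with a window among the sensors and XBP1. The ERSE of Hspa5 begins at position -65 from the start, that of Derl3 at -156, and the CARE-type elements of Atf3 and Nupr1 both at -110. ERSE and ERSE-II share the letters CCACG, and no site of 1 motif overlapped a site of another in the printed windows. These are matches of letters and not measured binding.

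On the arrays, each level is a log2 signal relative to the 75th percentile of its own array, so levels of different genes are not set against each other. Between 32164 and 37261 probes per array were well above background, no spot was saturated, and each array's median correlation with its own group was 0.985 to 0.994. Each of 4 slides carried 2 mice of each group. In whole liver, fewer cells of a type and less RNA per cell cannot be told apart. For hepatocyte markers the log2 of the summed signals was taken, in which the brightest markers weigh most. It was 12.3 to 12.7 in Western-diet E171 mice and 12.2 to 12.9 in Western-diet controls. On the normal diet it was 12.8 to 13.2 in E171 mice and 12.8 to 13.1 in controls.

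On the Western diet most ER chaperones and degradation factors fell, while the transcription factor Atf3 and the serine synthesis gene Psat1 rose. The transcription factor Nupr1 rose at its brighter probe only. Among controls, 6 of the 35 members were higher and 15 lower on the Western than on the normal diet (limma, Benjamini-Hochberg over all genes, threshold 0.05). That contrast called 47.3% of all genes, 18.5% higher and 28.8% lower, so that a call by itself is common. The median difference of the members was -0.34 log2, against -0.10 over all genes tested. Among E171 mice, 3 members were higher and 23 lower, where 53.2% of all genes were called, 22.2% higher and 31.0% lower. There the members' median was -0.66 log2, against -0.10 over all genes. Each later count of diet calls is to be set beside these shares over all genes. In E171 mice 13 members did not overlap between the diets, where 18% of all genes did not, and in controls only Atf3 did not, where 9.94% of all genes did not.

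Scaling moved the balance of higher and lower calls over all genes. In E171 mice the higher share was 41.7% as analysed and 31.5% after centring on the median of the genes tested. In controls it was 39.2% as analysed, 54.4% in the authors' deposited values and 30.1% after that centring and 52.5% after centring on the arrays' median deviation. In controls, where 6 members were higher and 15 lower as analysed, quantile normalization gave 8 higher and 8 lower, the deposited values 9 higher and 7 lower, and a fit to the 2 control groups alone 6 higher and 7 lower. Leaving out normal-diet control 2 or normal-diet control 5 left 9 lower, and leaving out normal-diet control 4 gave 21. In E171 mice the count of lower members stayed between 20 and 25. Besides the calls described gene by gene, the calls in controls of Syvn1 were lost in 3 of 13 processing alternatives, those of Creld2, Xbp1 and Sesn2 in 2 each and that of Pdia4 in 1, and leaving out single mice ended that of Sesn2 with 4 mice and that of Pdia4 with 2.

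Hspa5 encodes BiP, the main Hsp70 chaperone of the ER and the partner that holds the sensors inactive (probe at chr2:34631913-34631972, mm9). Its lowest, median and highest levels were 6.82, 7.19 and 7.91 in Western-diet E171 mice, 7.13, 7.53 and 8.53 in Western-diet controls, 7.82, 8.40 and 8.52 in normal-diet E171 mice, and 7.31, 7.99 and 9.17 in normal-diet controls. The normal-diet controls were the widest group and overlapped most of the Western-diet control range, while in E171 mice the ranges of the 2 diets shared only 7.82 to 7.91. Hspa5 fell by 1.08 log2 (SE 0.21, limma adjusted p = 0.000113) on the Western diet in E171 mice, to 0.474 of the normal-diet signal. In controls it fell by 0.56 log2 (SE 0.21, adjusted p = 0.0323), a call that was lost when any of 7 single mice was left out (adjusted p 0.0510 to 0.0914) and in 5 of 13 processing alternatives (adjusted p to 0.175, at -0.33 log2). Within the 4 slides the difference in controls was -0.10, -1.27, -0.91 and 0.05 log2, and in E171 mice -0.57, -0.93, -1.39 and -1.42.

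All 14 chaperones and folding enzymes had a negative difference in both diet contrasts, except that Canx in controls was at 0.02 log2 after quantile normalization and in the deposited values. By the test, 9 of 14 were called lower in controls (median -0.49 log2) and 14 of 14 in E171 mice (median -0.91). Sdf2l1, an ER protein that works with BiP and its J-domain partners (chr16:17130426-17130485, mm9), had lowest, median and highest levels of 1.67, 2.43 and 3.48 in Western-diet E171 mice, 2.14, 2.67 and 4.28 in Western-diet controls, 3.79, 4.39 and 4.76 in normal-diet E171 mice, and 2.36, 3.99 and 5.36 in normal-diet controls. Every Western-diet E171 mouse lay below every normal-diet E171 mouse, whereas the controls of the 2 diets overlapped. Sdf2l1 fell by 1.85 log2 in E171 mice (SE 0.34, adjusted p = 3.58e-05) and by 1.07 log2 in controls (SE 0.34, adjusted p = 0.01). Creld2, a secreted ER protein with a thioredoxin-like motif (chr15:88656997-88657056, mm9), had lowest, median and highest levels of 4.52, 5.09 and 6.14 in Western-diet E171 mice, 5.19, 5.77 and 7.31 in Western-diet controls, 6.4, 7.30 and 7.5 in normal-diet E171 mice, and 5.55, 6.71 and 8.34 in normal-diet controls. The E171 groups of the 2 diets did not overlap and the control groups did. Creld2 fell by 1.86 log2 in E171 mice (SE 0.33, adjusted p = 2.22e-05) and by 0.96 log2 in controls (SE 0.33, adjusted p = 0.0162).

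Manf, an ER-stress-induced protein that binds BiP and is also secreted, had lowest, median and highest levels of 3.29, 3.65 and 4.41 in Western-diet E171 mice, 3.78, 4.11 and 5.08 in Western-diet controls, 4.57, 5.06 and 5.54 in normal-diet E171 mice, and 3.95, 4.72 and 5.87 in normal-diet controls. It fell by 1.31 log2 in E171 mice (adjusted p = 2.09e-05), with no overlap, and by 0.60 log2 in controls (adjusted p = 0.0295), a call lost in 4 of 13 processing alternatives and with any of 6 single mice left out. Of the J-domain partners of BiP, Dnajb11 fell by 1.01 log2 in E171 mice and by 0.60 in controls. Dnajb9 and Dnajc3 fell by 0.86 and 0.79 log2 in E171 mice, and in controls their differences of -0.40 and -0.33 log2 did not pass (adjusted p = 0.0812 and 0.0938). Hyou1, the nucleotide exchange factor of BiP, fell by 1.18 log2 in E171 mice and by 0.72 in controls, where the call was lost in 3 of 13 processing alternatives and with any of 8 single mice left out (adjusted p at least 0.0610).

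Disulphide isomerases and lectin chaperones were among those that fell. Pdia4 fell by 0.96 log2 in E171 mice and by 0.61 in controls, and Pdia3 fell by 0.58 log2 in E171 mice and by 0.38 in controls. Calr, the soluble lectin chaperone calreticulin, fell by 0.43 log2 in E171 mice and by 0.31 in controls. In controls the call of Pdia3 was lost in 4 of 13 processing alternatives (adjusted p to 0.132) and with any of 6 single mice left out. That of Calr was lost in 5 of 13 (adjusted p to 0.427, at -0.11 log2) and with any of 10 single mice left out, and in E171 mice in 2 of 13 (adjusted p to 0.0848). Hsp90b1 (the ER Hsp90), Pdia6 and Canx (the membrane-bound lectin chaperone calnexin) fell by 0.81, 0.66 and 0.37 log2 in E171 mice. In controls these 3 had differences of -0.41, -0.34 and -0.18 log2 that did not pass (adjusted p = 0.0587, 0.0523 and 0.0707). Of 20 further folding enzymes and chaperones outside the 35 members, 2 were higher and 12 lower on the Western diet in E171 mice, and 1 higher and 11 lower in controls. Those called with the largest differences in controls were the ER oxidase gene Ero1b, Pdia5, Prdx4 and Ppib, at -1.3, -1.15, -0.95 and -0.69 log2 in E171 mice and -0.97, -0.95, -0.61 and -0.58 log2 in controls. Of 30 genes of the translocon and early secretory pathway, 16 were lower in E171 mice and 12 in controls, with 0 higher in either. Ssr4, Sec23b, Srp68 and Spcs2 were at -0.53, -0.66, -0.54 and -0.61 log2 in E171 mice and -0.53, -0.47, -0.42 and -0.36 log2 in controls.

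**Figure D1:**
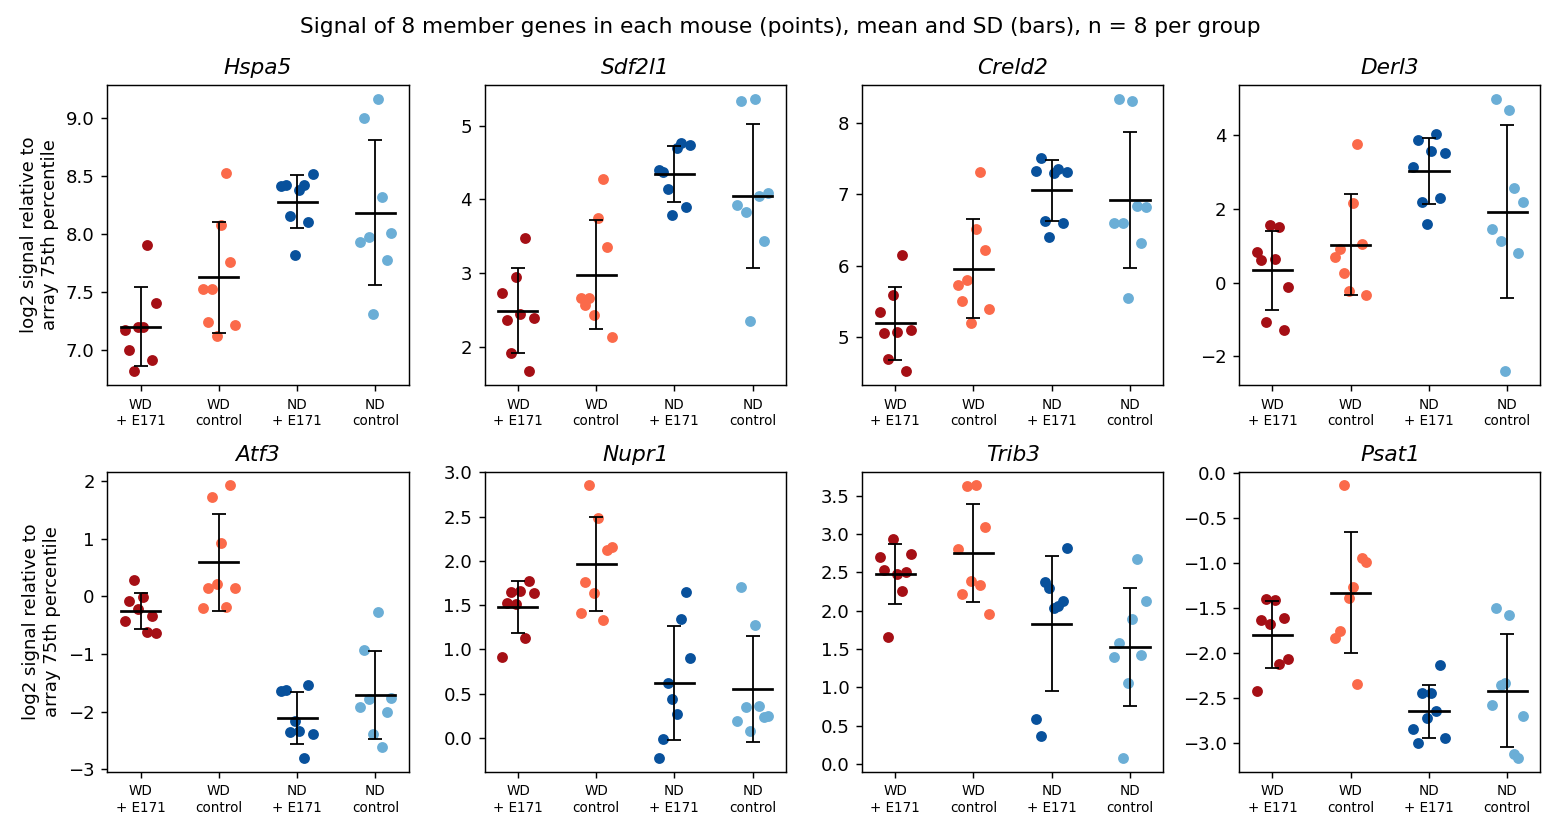
Levels of 8 members (vertical axes, log2 signal relative to the array's 75th percentile) in the 4 groups; each point is 1 mouse and the bar and whiskers are the mean and SD of 8 mice. The Western-diet groups sit lower for Hspa5, with normal-diet controls spanning 7.31 to 9.17, and higher for Atf3, whose Western-diet medians are -0.28 and 0.18 against -2.25 and -1.84 on the normal diet.

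All 5 members that act in ER-associated degradation, which returns misfolded proteins to the cytosol for the proteasome, fell on the Western diet in E171 mice (median -0.86 log2), and 3 of 5 fell in controls (median -0.59). Syvn1, the ubiquitin ligase HRD1, had lowest, median and highest levels of 5.15, 5.77 and 6.78 in Western-diet E171 mice, 5.67, 6.23 and 7.57 in Western-diet controls, 6.90, 7.13 and 7.90 in normal-diet E171 mice, and 6.16, 7.0 and 8.26 in normal-diet controls. It fell by 1.43 log2 in E171 mice (SE 0.28, adjusted p = 0.000105), without overlap, and by 0.82 log2 in controls (adjusted p = 0.0176). Its adaptor Sel1l fell by 0.86 log2 in E171 mice and by 0.59 in controls. Edem1, which recognises mannose-trimmed glycoproteins, fell by 0.67 log2 in E171 mice and by 0.42 in controls. Herpud1, a membrane scaffold of the HRD1 complex, fell by 0.80 log2 in E171 mice (adjusted p = 0.00525), and its difference of -0.30 log2 in controls did not pass (adjusted p = 0.295).

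Derl3, a derlin of the retrotranslocation complex (chr10:75358606-75358665, mm9), had the widest spread of the members. Its lowest, median and highest levels were -1.28, 0.62 and 1.55 in Western-diet E171 mice, -0.34, 0.80 and 3.77 in Western-diet controls, 1.59, 3.33 and 4.02 in normal-diet E171 mice, and -2.41, 1.83 and 5.00 in normal-diet controls. The normal-diet controls alone spanned every other group. Derl3 fell by 2.69 log2 in E171 mice (SE 0.73, adjusted p = 0.0027), and its difference of -0.89 log2 in controls (SE 0.73, adjusted p = 0.32) did not pass. Within slides that difference was 0.21, -3.31, -1.12 and 0.64 log2 in controls, against -1.20, -2.01, -3.57 and -3.99 in E171 mice. Of 21 further degradation genes, 14 were lower on the Western diet in E171 mice and 10 in controls, and 0 were higher. Derl2, the signal peptide peptidase gene Hm13, Selenos and Os9 were at -0.46, -0.42, -0.77 and -0.35 log2 in E171 mice and -0.40, -0.36, -0.33 and -0.31 in controls. The call of Os9 was lost with quantile normalization and in the deposited values in both sets of mice. In controls that of Hm13 was lost in the same alternatives and that of Selenos in the deposited values.

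The sensors did not move together. Ern1, which encodes IRE1 alpha, had lowest, median and highest levels of 1.94, 2.36 and 3.05 in Western-diet E171 mice, 2.45, 2.54 and 3.18 in Western-diet controls, 3.16, 3.50 and 3.86 in normal-diet E171 mice, and 2.89, 3.36 and 3.89 in normal-diet controls. It fell by 1.09 log2 in E171 mice (SE 0.15, adjusted p = 6.25e-07), without overlap, and by 0.65 log2 in controls (SE 0.15, adjusted p = 0.000766). All 5 kept probes of Ern1 were called lower in controls, and the sign was the same on 4 of 4 slides in both contrasts. Xbp1, the factor whose mRNA IRE1 splices, fell by 0.75 log2 in E171 mice (adjusted p = 0.000165), without overlap, and by 0.54 log2 in controls (adjusted p = 0.00483). The array reads total Xbp1 mRNA at a probe, and splicing was not measured.

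Atf6 had medians of 2.20 in Western-diet E171 mice, 2.17 in Western-diet controls, 2.26 in normal-diet E171 mice and 2.18 in normal-diet controls. Its differences were -0.08 log2 in E171 mice (95% interval -0.23 to 0.07) and 0.01 log2 in controls (-0.14 to 0.15). The sign turned under at least 1 alternative for Atf6, Eif2ak3 and Sesn2 in E171 mice and for Atf6, Atf5, Ddit3 and Canx in controls, none of them called there. Eif2ak3, which encodes PERK, differed by -0.05 log2 in E171 mice (adjusted p = 0.798) and by 0.32 in controls (adjusted p = 0.0766), while its other kept probe was called higher in both, at 0.22 log2 in E171 mice and 0.44 in controls. Of 12 other ER sensors and membrane-bound factors, 3 were higher and 3 lower in E171 mice, and 2 and 2 in controls. Over all genes 22.2% were higher and 31.0% lower in E171 mice, and 18.5% and 28.8% in controls. Creb3l1, Creb3l4, Wfs1 and Atf6b were at 0.97, 0.66, -0.45 and -0.38 log2 in E171 mice and 1.0, 0.78, -0.39 and -0.30 log2 in controls. Creb3l4 was above background on 5 of 8 arrays of each normal-diet group, and with normexp background correction its call was lost in E171 mice (adjusted p = 0.738) and in controls (adjusted p = 0.722). The call of Atf6b in controls was lost in 4 of 45 alternatives.

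**Figure D2:**
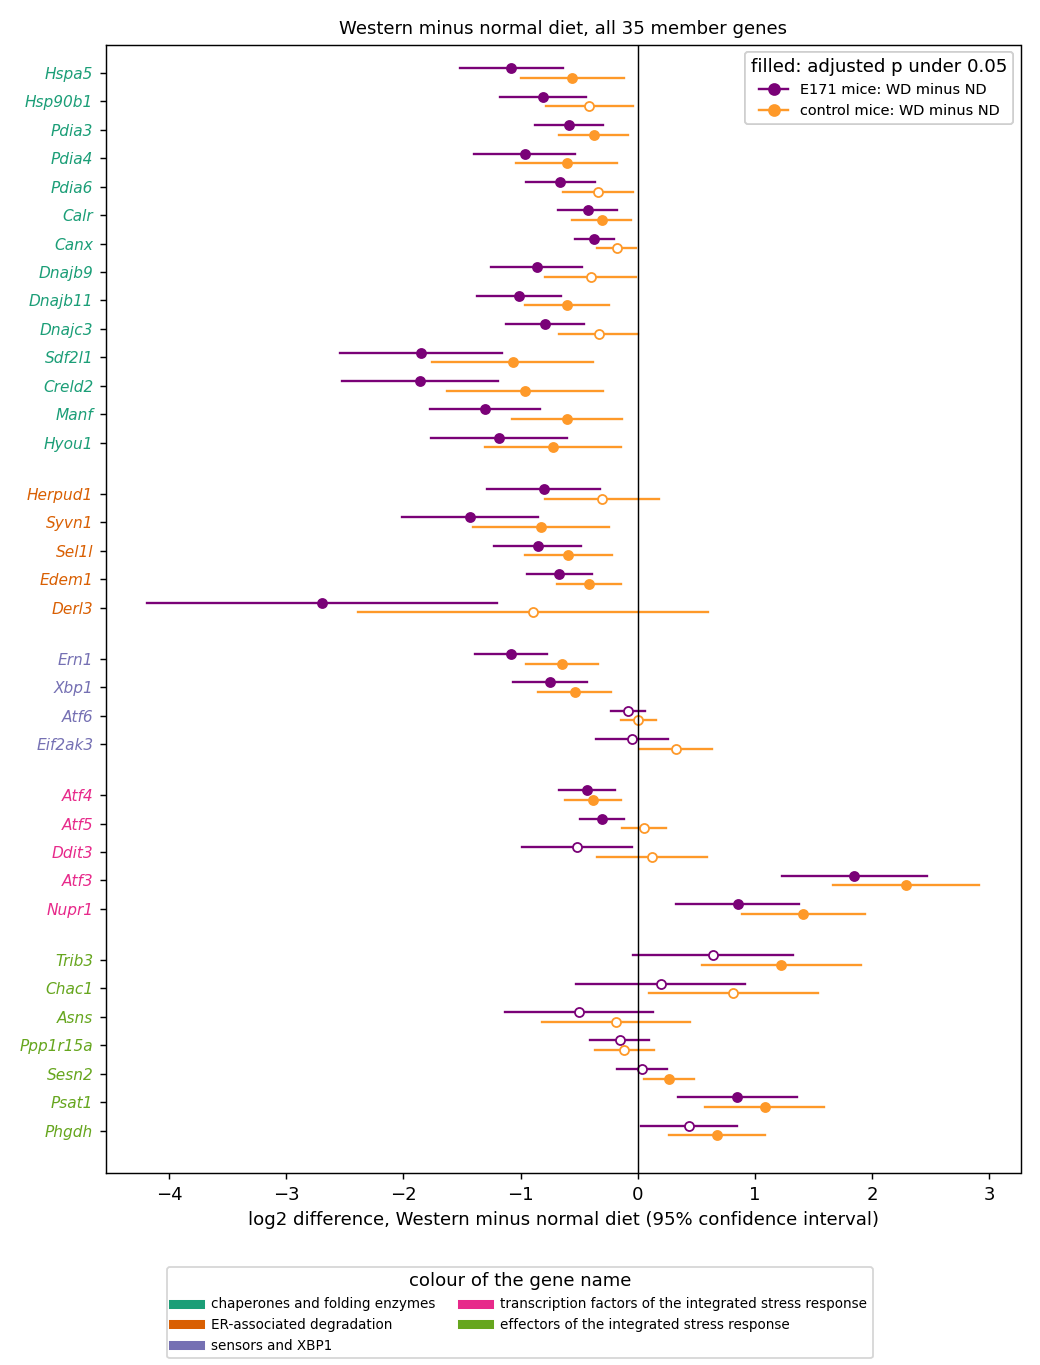
Difference of Western minus normal diet (horizontal axis, log2) for the 35 members by role, in E171 mice and in controls, with 95% confidence intervals; filled points passed the adjusted threshold of 0.05. As analysed, chaperone and degradation genes lie left of 0 in both sets of mice (Canx in controls turned to 0.02 after quantile normalization), Derl3 furthest at -2.69 in E171 mice, and Atf3 lies furthest right at 1.85 in E171 mice and 2.29 in controls.

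Of the 5 transcription factors of the integrated stress response, 2 rose and 2 fell on the Western diet in E171 mice, and 2 rose and 1 fell in controls. Among all genes tested, 22.2% rose and 31.0% fell in E171 mice, and 18.5% rose and 28.8% fell in controls. Atf3, a stress-induced bZIP factor (chr1:192994547-192994606, mm9), had lowest, median and highest levels of -0.63, -0.28 and 0.29 in Western-diet E171 mice, -0.20, 0.18 and 1.93 in Western-diet controls, -2.80, -2.25 and -1.53 in normal-diet E171 mice, and -2.61, -1.84 and -0.26 in normal-diet controls. The diets did not overlap in either set of mice. Atf3 rose by 1.85 log2 in E171 mice (SE 0.30, adjusted p = 8.55e-06), which is 3.61-fold, and by 2.29 log2 in controls (SE 0.30, adjusted p = 4.04e-07), which is 4.90-fold. Within slides the difference was 1.48, 1.59, 2.12 and 2.21 log2 in E171 mice and 2.07, 1.49, 2.29 and 3.31 in controls.

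Nupr1, a small stress-induced chromatin protein, had lowest, median and highest levels of 0.91, 1.58 and 1.77 in Western-diet E171 mice, 1.33, 1.94 and 2.85 in Western-diet controls, -0.23, 0.53 and 1.64 in normal-diet E171 mice, and 0.08, 0.30 and 1.70 in normal-diet controls. It rose by 0.85 log2 in E171 mice (adjusted p = 0.00634) and by 1.41 in controls (SE 0.26, adjusted p = 4.58e-05). A dimmer Nupr1 probe was at -0.22 log2 in E171 mice (adjusted p = 0.150) and -0.23 in controls (adjusted p = 0.134) and did not pass, so the rise rests on 1 of its 2 kept probes. With the mean of its probes the call of Nupr1 in E171 mice was lost. Atf4, which is controlled mainly in translation, fell by 0.43 log2 in E171 mice and by 0.38 in controls. Atf5 fell by 0.30 log2 in E171 mice (adjusted p = 0.00649) and differed by 0.05 in controls (adjusted p = 0.661). The calls of Atf4 in both sets of mice, and of Atf5 in E171 mice, were lost with quantile normalization and in the deposited values (adjusted p of Atf4 to 0.214 in controls). Ddit3, which encodes CHOP, differed by -0.52 log2 in E171 mice (adjusted p = 0.0579) and by 0.12 in controls (adjusted p = 0.689).

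The 7 effectors had a median difference of 0.20 log2 in E171 mice, where 1 rose and 0 fell, and of 0.68 log2 in controls, where 4 rose and 0 fell. Over all genes tested, 22.2% rose and 31.0% fell in E171 mice, and 18.5% rose and 28.8% fell in controls. The count of higher effectors in E171 mice lies near the share over all genes. Psat1, an aminotransferase of serine synthesis (chr19:15979622-15979681, mm9), had lowest, median and highest levels of -2.42, -1.66 and -1.40 in Western-diet E171 mice, -2.34, -1.33 and -0.14 in Western-diet controls, -3.00, -2.68 and -2.13 in normal-diet E171 mice, and -3.16, -2.46 and -1.5 in normal-diet controls. It rose by 0.85 log2 in E171 mice (adjusted p = 0.0049) and by 1.08 in controls (SE 0.25, adjusted p = 0.000671). Phgdh, the first enzyme of the same pathway, rose by 0.68 log2 in controls (adjusted p = 0.00622) and differed by 0.44 in E171 mice (adjusted p = 0.0658). Trib3, a pseudokinase induced by CHOP, had lowest, median and highest levels of 1.66, 2.52 and 2.94 in Western-diet E171 mice, 1.96, 2.59 and 3.64 in Western-diet controls, 0.36, 2.09 and 2.82 in normal-diet E171 mice, and 0.08, 1.5 and 2.67 in normal-diet controls. It rose by 1.23 log2 in controls (SE 0.33, adjusted p = 0.00326) and differed by 0.65 in E171 mice (adjusted p = 0.102), with overlap in both. Sesn2, a leucine-binding inhibitor of mTORC1, rose by 0.27 log2 in controls (adjusted p = 0.033) and differed by 0.04 in E171 mice.

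The other effectors did not pass. Chac1, which degrades glutathione, differed by 0.20 log2 in E171 mice and by 0.82 in controls (adjusted p = 0.0564). Asns, the asparagine synthetase, differed by -0.51 log2 in E171 mice and -0.19 in controls, and Ppp1r15a, which directs the phosphatase to eIF2 alpha, by -0.16 in E171 mice and -0.11 in controls. Around them, 15 secreted and effector targets of ATF4 and CHOP held 8 higher and 3 lower genes in E171 mice and 8 higher and 1 lower in controls. Beside these counts, 22.2% of all genes were higher and 31.0% lower in E171 mice, and 18.5% and 28.8% in controls. The death receptor gene Tnfrsf10b was at 1.85 log2 in E171 mice and 2.20 in controls (adjusted p = 7.12e-10), and Gdf15, a secreted stress hormone, at 1.67 in E171 mice and 1.92 in controls. The lipoprotein receptor gene Vldlr was at 1.93 log2 in E171 mice and 1.56 in controls. Stc2, which encodes a secreted glycoprotein, was near background: 7 of 8 Western-diet and 1 of 8 normal-diet control arrays and no normal-diet E171 array were well above it, and its call in controls was lost with normexp background correction (adjusted p = 0.384).

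Genes of amino acid supply were mixed. Of 10 further genes of amino acid and one-carbon synthesis, 3 were higher and 3 lower in both contrasts. These counts lie near the shares called over all genes. Those were 22.2% higher and 31.0% lower in E171 mice, and 18.5% higher and 28.8% lower in controls. Mthfd1l, a mitochondrial folate enzyme, was called higher in both, but 2 of 8 normal-diet E171 arrays and 4 of 8 normal-diet control arrays were above background. Its size therefore depends on the background: 2.73 log2 as analysed and 0.59 with normexp in E171 mice, and 2.73 and 0.62 in controls. Gpt2 and Cbs were at 0.97 and -1.01 log2 in E171 mice and 0.77 and -0.66 log2 in controls. Mthfd2 was at 0.08 log2 in E171 mice (adjusted p = 0.802) and 0.79 in controls. Of 8 measured amino acid transporters, 3 were higher and 3 lower in E171 mice, and 4 and 2 in controls. The arginine transporter gene Slc7a1, Slc6a9 and Slc1a4 were at 0.95, 0.71 and -0.85 log2 in E171 mice and 1.0, 0.63 and -0.70 log2 in controls. Slc7a3 was at 1.0 log2 in controls, with 6 of 8 Western-diet and 1 of 8 normal-diet arrays above background, and at -0.09 with normexp background correction. Of 12 measured aminoacyl-tRNA synthetases, 0 were higher and 8 lower in E171 mice and 5 lower in controls, among them Tars1, Yars1, Aars1 and Mars1 at -0.78, -0.56, -0.38 and -0.32 log2 in E171 mice and -0.54, -0.31, -0.36 and -0.33 log2 in controls. The call of Aars1 (Aars in the files) was lost with the mean of its probes in both. Of 15 genes for eIF2 kinases, phosphatase partners and eIF2 or eIF2B subunits, 2 were higher and 8 lower in both contrasts. Impact, an inhibitor of GCN2 activation, was at 0.55 log2 in E171 mice and 0.59 in controls, and the GCN2 activator Gcn1 was at -0.35 log2 in E171 mice and -0.38 in controls. Eif2b4 and Ppp1r15b were at -0.32 and -0.30 log2 in E171 mice and -0.34 and -0.32 log2 in controls.

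Markers of several cell types moved with the diet and those of others were mixed. The part of cell types in the members' differences was not tested. Over all genes 22.2% were higher and 31.0% lower in E171 mice, and 18.5% and 28.8% in controls. Of 10 hepatocyte markers, 9 were lower on the Western diet in both sets of mice. Of 8 markers of lipid-associated macrophages 7 were higher in both sets, as were 7 of 10 of Kupffer cells and 6 of 8 of stellate cells, and of 6 cholangiocyte markers 5 were higher in E171 mice and 4 in controls. In controls 2 of 8 T and NK cell markers were higher and 3 lower, and 1 of 6 B cell markers each way. Endothelial markers were 3 higher and 2 lower of 7, and adipocyte markers 1 higher and 2 lower of 4. The log2 of the summed adipocyte signals was 0.71 to 6.66 in Western-diet and 0.19 to 3.67 in normal-diet controls. The log2 of the summed signals of the lipid-associated macrophage list was 6.67 to 7.43 in Western-diet E171 mice and 6.57 to 7.60 in Western-diet controls. On the normal diet it was 6.17 to 6.37 in E171 mice and 6.06 to 6.73 in controls. Plasma cells and exocrine pancreas, which are rich in ER, were looked at as well. Of 5 measured plasma cell markers 1 was higher in E171 mice, near the share over all genes, and 2 in controls. The log2 of their summed signals was 2.63 to 3.39, 3.00 to 3.60, 2.88 to 3.22 and 2.77 to 3.30 in Western-diet E171 mice, Western-diet controls, normal-diet E171 mice and normal-diet controls. Of 4 measured exocrine pancreas markers, 3 were lower in both contrasts. The log2 of their summed signals was 3.84 to 4.31, 4.03 to 4.26, 5.01 to 5.89 and 4.81 to 5.72 in the same order of groups.

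E171 itself passed the threshold for none of the 35 members on either diet. On the Western diet 0 members were called and 9 had an unadjusted p below 0.05, where 0.381% of all genes were called, 0.211% higher and 0.169% lower, and 2821 had an unadjusted p below 0.05. Of all genes called there, 55.6% were higher as analysed, 36.9% in the deposited values, 35.8% centred on the arrays' median deviation and 22.2% with median scaling. The sign was negative for 34 of 35 members, with a median of -0.26 log2 against 0.01 over all genes. Many members vary together from mouse to mouse, so these signs are not separate observations. The lowest adjusted p was that of Ddit3, which had lowest, median and highest levels of -0.83, -0.64 and -0.37 in Western-diet E171 mice and -0.43, 0.07 and 1.02 in Western-diet controls. These ranges overlapped only between -0.43 and -0.37, and the difference was -0.84 log2 (SE 0.23, adjusted p = 0.0938, same sign on 4 of 4 slides). Dnajb9 differed by -0.64 log2 (adjusted p = 0.117), Eif2ak3 by -0.48 (0.145), Chac1 by -0.98 (0.221) and Atf3 by -0.84 (0.224), each with the same sign on 4 of 4 slides. Hspa5 differed by -0.42 log2 (adjusted p = 0.44), with a 95% interval of -0.86 to 0.02. These contrasts reuse the mice of the diet contrasts, so the 2 sets of values are not independent.

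On the normal diet 0 members and 0% of all genes were called by limma, with an unadjusted p below 0.05 for 0 members and for 958 genes. The sign was positive for 26 members and negative for 9, with a median of 0.09 log2 against 0.01 over all genes. Hspa5 differed by 0.10 log2 (95% interval -0.34 to 0.54), Atf3 by -0.40 (-1.02 to 0.22), and Derl3 by 1.1 (-0.39 to 2.59), each at an adjusted p of 0.999. The interaction, E171 minus control on the Western diet less the same on the normal diet, called 0 members and 0% of all genes, with 3 members and 1223 genes at an unadjusted p below 0.05. Its sign was negative for 35 of 35 members, with a median of -0.40 log2 against 0.00 over all genes. Since many members vary together, these signs and those on the normal diet are not separate observations. The lowest adjusted p of the interaction among the members was 0.886, for Atf5. The difference between 23 lower members in E171 mice and 15 in controls is therefore not shown gene by gene. As the mean of both diets, E171 called 0 members and 0.368% of all genes, 0.186% higher and 0.182% lower, with 6 members and 2600 genes at an unadjusted p below 0.05. Of the genes called there 50.6% were higher as analysed, 33.3% centred on the arrays' median deviation, 27.3% in the deposited values and 21.2% with median scaling.

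On the Western diet 3 genes of the wider lists were called for E171, where 0.381% of all genes were called. They were 1 of 21 further degradation genes, 1 of 15 eIF2 kinase, phosphatase and subunit genes, and 1 of 15 targets of ATF4 and CHOP. Ube2g2, an E2 enzyme of ER-associated degradation, had lowest, median and highest levels of 1.53, 1.67 and 2.03 in Western-diet E171 mice and 2.01, 2.17 and 2.38 in Western-diet controls, and fell by 0.44 log2 (SE 0.10, adjusted p = 0.0348). Nck1, an adaptor reported to bind the eIF2 phosphatase, was at 0.61, 0.99 and 1.12 in Western-diet E171 mice and 1.1, 1.3 and 1.46 in Western-diet controls, and fell by 0.35 log2 (SE 0.08, adjusted p = 0.0455). Jdp2, a bZIP partner of ATF3, was at -0.82, -0.51 and -0.19 in Western-diet E171 mice and -0.48, 0.18 and 0.45 in Western-diet controls, and fell by 0.61 log2 (SE 0.13, adjusted p = 0.0278). The call was lost in 11 of 45 alternatives for Ube2g2 (adjusted p 0.0111 to 0.105), in 22 of 45 for Nck1 (0.0276 to 0.129) and in 6 of 45 for Jdp2 (0.00498 to 0.0745). Prdx4 was not called there as analysed and became called in 9 alternatives (limma adjusted p 0.0253 to 0.0490). As the mean of both diets Jdp2 fell by 0.51 log2 (SE 0.09, adjusted p = 0.0082), a call kept in 44 of 44 alternatives. No marker of the cell types listed was called in an E171 contrast.

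**Figure D3:**
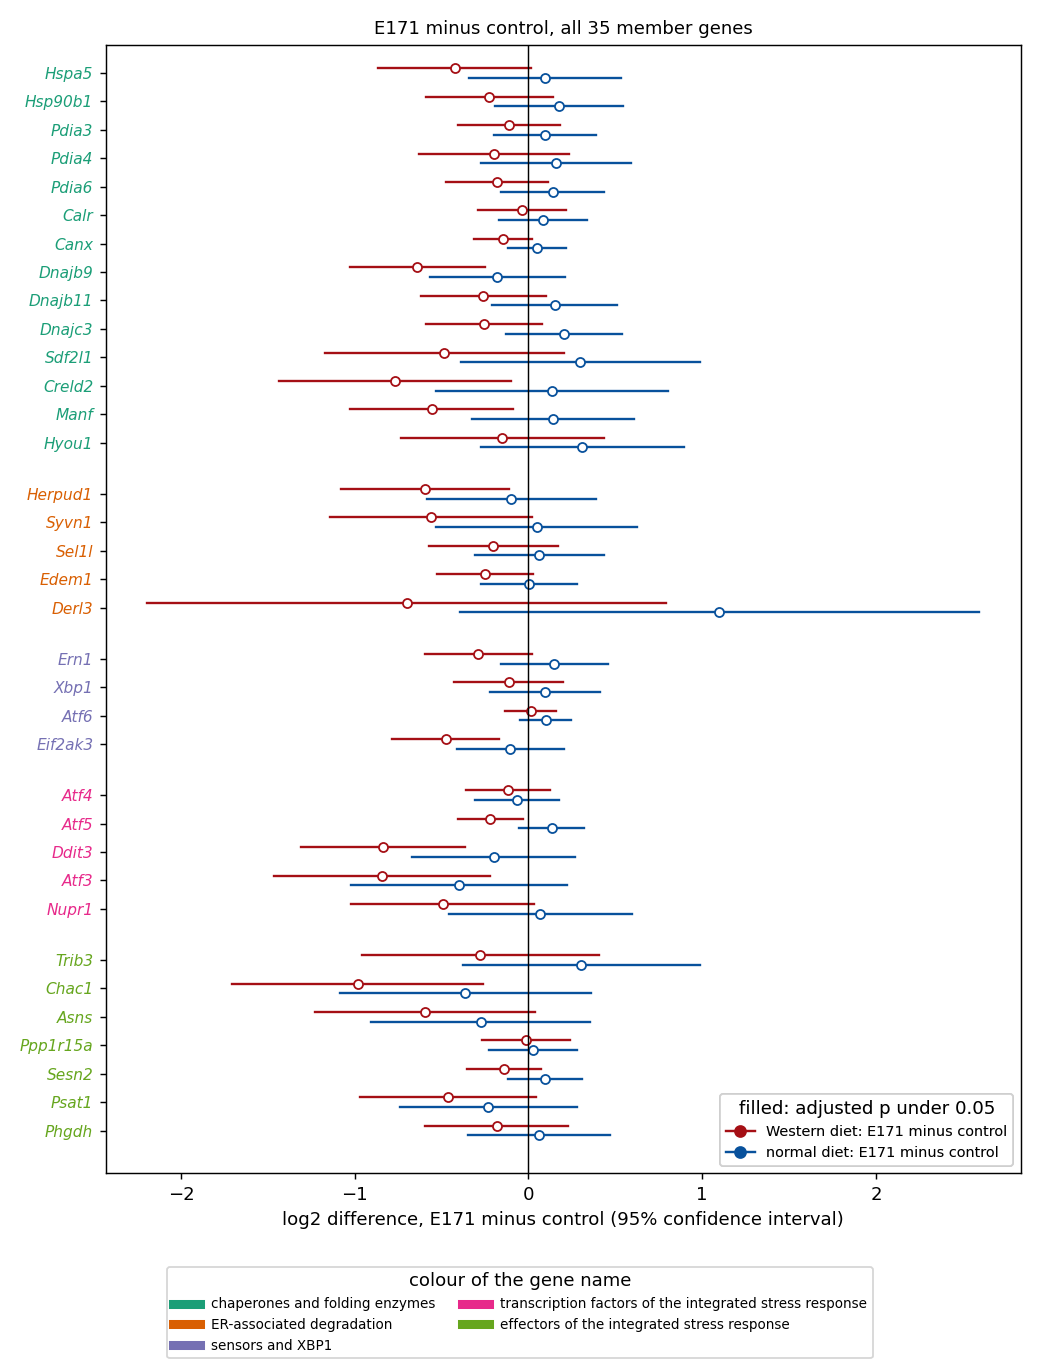
Difference of E171 minus control (horizontal axis, log2) for the 35 members by role, on the Western and on the normal diet, with 95% confidence intervals; no point is filled, since none passed the adjusted threshold of 0.05. On the Western diet 34 of 35 points lie left of 0, and on the normal diet 26 lie right of it. Many members vary together, so the points are not separate observations.

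By Pearson's r, most chaperones varied together with Hspa5 from mouse to mouse within each group. Fewer passed in the 2 E171 groups than in the 2 control groups, and a difference in r was not tested. The SD of Hspa5 was 0.34 and 0.23 in Western-diet and normal-diet E171 mice, and 0.48 and 0.62 in the matching controls. The members varied more than other genes among normal-diet controls, where their median SD was 0.518 against 0.215 over all genes, and in Western-diet controls, at 0.420 against 0.221. In Western-diet E171 mice it was 0.296 against 0.214, and in normal-diet E171 mice 0.294 against 0.198. Hspa5 was highest among normal-diet controls in mice 5 and 2, at 9.17 and 9.0, and lowest in mouse 4, at 7.31. Across the 34 other members and 4 groups, 61 of 136 Pearson correlations with Hspa5 passed (exact permutation test over 8 mice, two-sided, Benjamini-Hochberg over the 136). They numbered 14 in Western-diet E171 mice, 19 in Western-diet controls, 9 in normal-diet E171 mice and 19 in normal-diet controls. How many of all genes would pass the same test was not computed, so these counts are not shown to be particular to the members.

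Of the 13 other chaperones, 10, 12, 8 and 12 passed in Western-diet E171 mice, Western-diet controls, normal-diet E171 mice and normal-diet controls, with median r of 0.85, 0.97, 0.82 and 0.97. Without the 2 mice farthest from the group's median Hspa5 level the medians were 0.50, 0.84, 0.47 and 0.88, and by Spearman's rho 2, 9, 3 and 12 passed. The relation was thus weaker among the remaining mice, most so in the 2 E171 groups. Leaving out the mice farthest in Hspa5 also narrows its range, which by itself can lower r. Creld2 had r of 0.87, 0.99, 0.93 and 0.99 in that order of groups. The 5 degradation genes had median r of 0.91, 0.95, 0.69 and 0.96, of which 3, 5, 1 and 5 passed.

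Few integrated stress response genes passed with Hspa5 by Pearson's r. No effector passed with a positive r in any group, and Phgdh passed with a negative one in Western-diet E171 mice (r = -0.88, adjusted exact permutation p = 0.00696, rho = -0.79, and r = -0.68 without 2 mice). Of the transcription factors, Nupr1 and Atf3 passed, both in normal-diet controls. Nupr1 had r = 0.91 (adjusted exact permutation p = 0.0118), rho = 0.93 and r = 0.88 without 2 mice. Atf3 had r = 0.81 (adjusted exact permutation p = 0.0383), rho = 0.64 and r = 0.01 without 2 mice, so its relation was not seen among the remaining mice. By rho, 1 of the 5 transcription factors passed in each group except normal-diet E171 mice, where 0 did. The median r of the 5 was 0.28 and 0.46 in Western-diet E171 mice and controls, and -0.06 and 0.75 on the normal diet. Without 2 mice it was -0.15, 0.70, 0.11 and 0.51 in that order. Of the sensors, Xbp1 (r = 0.94, rho = 0.90, r = 0.77 without 2 mice) and Atf6 (r = 0.85, rho = 0.86, r = 0.62 without 2 mice) passed by Pearson's r, both in Western-diet controls. In Western-diet E171 mice Xbp1 had r = 0.75, which did not pass (adjusted exact permutation p = 0.0884). Its rho of 0.88 in that group did pass (adjusted exact permutation p = 0.0290), and r was 0.85 without 2 mice. These points share arrays and scaling: Hspa5 itself correlated with the number of probes above background at r = -0.50, -0.61, 0.14 and -0.63 in Western-diet E171 mice, Western-diet controls, normal-diet E171 mice and normal-diet controls (exact permutation p = 0.203, 0.108, 0.752 and 0.0933). A slide holds only 2 mice of a group, so no within-slide correlation could be had.

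**Figure D4:**
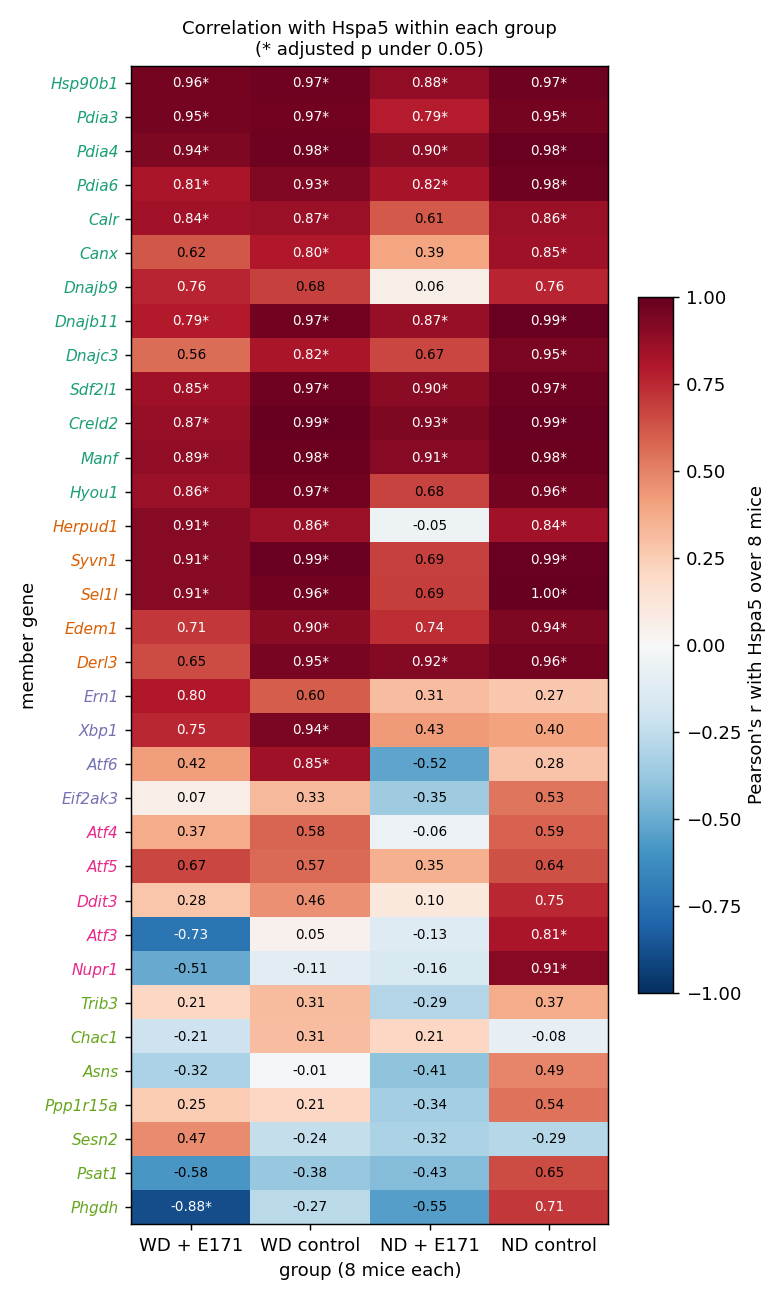
Pearson correlation with Hspa5 across the 8 mice of each group (colour scale, r from -1 to 1) for the other 34 members in rows by role; a star marks an adjusted p below 0.05. Chaperone rows are the most strongly coloured in the 2 control groups, with median r of 0.97 in both, and no effector row has a star for a positive r.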

How the data were processed

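Liver total RNA of 32 mice was hybridised with Cy3 to 1-colour Agilent arrays, 1 array per mouse. The deposited scanner files hold a background-corrected intensity per spot (gProcessedSignal) from Agilent Feature Extraction 10.10.1.1, per the file headers and the submitters' processing notes, which also name limma; probe positions are mm9, per the file headers. The authors' deposited value table is on a log2 scale, and how it was made is not stated in the sources used; it served as an alternative.

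For each array log2 intensity minus its 75th percentile was taken. A probe was kept if well above background on at least 6 of 8 arrays of 1 group, which left 35777 of 56605 probes and 23645 genes, 18247 of them named through RefSeq; the kept probe with the highest mean signal represents a gene. limma 3.58.1 (R 4.3.3) fitted the 4 group means (lmFit, eBayes, two-sided), p-values were Benjamini-Hochberg adjusted over all genes, and the threshold was 0.05. Correlations with Hspa5 used exact permutation of 8 mice in Python 3.11.15 with numpy 2.4.6. The script was tested on simulated data.

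The 35 members, the wider gene lists and the cell type markers were chosen with earlier results of these data known. All members were named; of each wider list, up to 4 called genes with the largest absolute diet difference in controls, and any called in an E171 contrast. Alternatives were other background correction, scaling and probe filters, the deposited table, slide or replicate number as a block, other fits, and each mouse left out. The number of arrays limits the precision.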

Additional observations from a re-analysis of the deposited data

Results flagged for a closer look

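No member had a mouse that stood apart from its group in any of 140 groups of 8, by the gap between the highest or lowest mouse and its nearest neighbour set against the group's range. Among the 39 named genes of the wider lists 12 of 156 groups had such a mouse, and chance gives about 1 in 20. All levels here are log2 relative to the array's 75th percentile. Western-diet control 6 was low for Gdf15, at 2.29 where the other mice began at 3.71, for Mthfd1l, at -3.94 where they began at -2.59, and for Stc2, at -7.57 where they began at -5.10. Western-diet E171 mouse 1 was low for Mthfd2, at -3.31, and for Slc7a3, at -5.61. Normal-diet control 4 was low for Gdf15, at -0.14 where the others began at 1.68, and for Slc6a9, at 3.54, and normal-diet control 2 was high for Srp68, at 3.37. Among normal-diet E171 mice, mouse 6 was high for Os9, at 6.26, and low for Slc7a1, at -1.90, mouse 7 was high for Vldlr, at -0.44, and mouse 8 was high for Ssr4, at 6.33. Whether these mice differ in other ways was not tested.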

How the results depend on the processing

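Among the members' own differences, 9232 values under an alternative kept their side of the threshold, 83 were no longer called, 65 became called and 0 reversed a call. The 9232 include changes of sign where the difference was not called in either fit. They also pool the diet contrasts with those for E171 and the interaction, where 0 members were called in any fit. The total therefore says little about how steady the diet calls were. Of the counts, the 15 members lower on the Western diet in controls became 8 with quantile normalization, 7 in the authors' deposited values and 7 in the fit to the 2 control groups alone, and 9 to 21 with 1 mouse left out. It was 20 and 10 under 2 centrings chosen after seeing the data (on the median of the genes tested, and on the arrays' median deviation). The 6 higher became 8 with normexp, quantile normalization or centring on the arrays' median deviation, 9 in the deposited values and 5 to 7 with 1 mouse left out. In that leaving-out, the 23 lower in E171 mice ranged from 23 to 24 and the 3 higher from 3 to 4; leaving out single mice was also chosen after seeing the data. In every alternative run 0 members were called for E171 on either diet, for their mean and for the interaction. Calls kept in all of them were 10 of 21 in controls (Dnajb11, Sdf2l1, Sel1l, Edem1, Ern1, Atf3, Nupr1, Trib3, Psat1 and Phgdh) and 22 of 26 in E171 mice. The correlations with Hspa5 that passed numbered 52 to 61. Outside the members, 57 values of the named genes were no longer called and 14 became called, and Slc7a3 in controls reversed to -0.090 with normexp background correction. The cause of these changes was not tested.

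Deviations of same-numbered mice correlated at 0.07 on average (48 pairs, from -0.30 to 0.57, 23 above 0.1), and those of other pairs at -0.01 (336 pairs, 74 above 0.1). Since not every same-numbered pair was above 0.1, the numbers were not taken to pair the mice. With the replicate block, 17 members were lower and 6 higher in controls, and 23 lower and 4 higher in E171 mice. Depth is not counted on arrays, and signal near background limits Slc7a3, Stc2, Mthfd1l and Creb3l4.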
